A study of Glycine max with 12 samples.

Results

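Genes annotated with phosphate transport or the phosphate starvation response were followed across roots of soybean (Glycine max, cultivar Williams 82) with and without cadmium (Cd) and the bacterium Oceanobacillus picturae (OP). They were the genes of the deposited table whose Gene Ontology annotation named phosphate ion transport, inorganic phosphate transmembrane transporter activity or the response to phosphate starvation, without a nitrate term. This gave 68 of 49128 genes, and the nitrate clause removed 0. Phosphate ion transport was named for 46 genes, the transporter activity for 35 and the starvation response for 24, with some genes holding several terms. The table describes 65 of the 68 as hypothetical proteins and gives a symbol to 0, so the roles below are those of the annotation terms and are not measured. The genes lie on 18 chromosomes.

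By their further terms the genes fell into 10 groups. PHO1-type genes numbered 14, sharing an inositol hexakisphosphate binding term with GLYMA_02G110600, which the table describes as PHO1 homolog 10 by projection from Arabidopsis. General phosphate transporter genes, annotated with phosphate ion transport and none of the terms that set the other groups, numbered 11. Genes with the starvation term but no transport term numbered 10. There were 9 mitochondrial phosphate carrier genes, 9 plastid genes, 5 dicarboxylate carrier genes, 4 vacuolar genes and 2 plasma membrane symporter genes. The remainder were 1 ATP-binding gene and 3 genes with no further term.

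There were 3 libraries each for roots with neither addition (control), with Cd, with OP (control+OP) and with both (Cd+OP), 12 in all, from root total RNA of the same cultivar. OP is the bacterium of the series title. A treatment label of 70 mg/L Cd stands on every sample, the controls among them, so no dose can be given per group. The age of the plants, how long they were treated and how they received the bacterium were not in the labels. Nor do the labels state that replicate libraries are separate plants, and p-values therefore rest on a spread that may be technical. Root hair markers (10 genes) summed to 60.1 to 62.1 FPKM in control and 50.01 to 50.2 in Cd+OP, the groups with the highest and lowest median sums. Libraries held 49904227 to 57693211 counts, of which the 68 genes took 0.181 to 0.217%.

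Plants take up phosphate through proton-coupled transporters in the plasma membrane of root cells, store it in the vacuole and load it into the xylem through PHO1 proteins. Proteins with an SPX domain, which also stands at the start of PHO1 proteins, bind inositol phosphates and carry the cell's phosphate status to the starvation response, as worked out mainly in Arabidopsis and rice. When phosphate is scarce, plants raise uptake transporters, acid phosphatases and enzymes that replace phospholipids in membranes. Mitochondrial carriers bring phosphate in for ATP synthesis, and dicarboxylate carriers exchange organic acids, sulfate or phosphate across membranes. In whole roots, fewer cells of a type and less RNA per cell cannot be told apart in any value below.

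Levels are FPKM (fragments per kilobase of transcript, scaled to library size), per library or as mean ± SD of 3 libraries. Changes are log2 fold changes ± SE from edgeR's quasi-likelihood test with n = 3 per group, and a gene was called at a Benjamini-Hochberg adjusted p under 0.05 over the 30340 genes whose mean reached 1 FPKM. Of the 68 genes 37 reached that mean and 31 did not. GLYMA_03G032400 and GLYMA_09G235200, at means of 1.18 and 1.06 FPKM, passed only through their highest groups, control and Cd+OP. The mean of their other groups lay under 1 FPKM, and their calls carry that limit. Among the tested genes were 10 PHO1-type, 7 starvation response, 6 general transporter, 5 plastid, 3 dicarboxylate carrier, 2 mitochondrial carrier and 2 vacuolar genes, the ATP-binding gene and 1 gene with no further term. Both plasma membrane symporter genes stayed untested. A mean of at least 10 FPKM was reached by 13 genes, and 17 were at 0 in at least 1 library, 0 of them in all 12.

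Summed over their members, the starvation response group stood highest in control (83.7 ± 1.31 FPKM), then in Cd (59.7 ± 2.28), in Cd+OP (38.0 ± 1.22) and in control+OP (30.2 ± 0.918). General phosphate transporters followed the same order, with 197 ± 8.17, 149 ± 3.34, 80.8 ± 0.746 and 73.3 ± 0.178 FPKM. PHO1-type genes were highest in Cd+OP, at 114 ± 2.72 FPKM, and stood at 75.1 ± 1.07, 85.9 ± 1.01 and 67.8 ± 1.90 FPKM in control, Cd and control+OP. Of this sum GLYMA_10G183300 alone made up 41.9% in Cd+OP and 25.3% in Cd. Other genes of the group had their highest mean in Cd (GLYMA_02G003700, GLYMA_18G261900 and GLYMA_20G032500) or control+OP (GLYMA_07G228400). Vacuolar genes were highest in Cd, at 34.0 ± 1.99 FPKM against 19.7 ± 1.13 in control, 21.4 ± 0.486 with OP and 26.6 ± 0.473 with both. Dicarboxylate carriers, the group with the most transcript, were highest in control+OP, at 562 ± 11.3 FPKM against 245 ± 12.1 in control, 279 ± 5.18 with Cd and 368 ± 8.46 with both. Mitochondrial phosphate carriers too were highest there, with 54.1 ± 0.943 FPKM against 35.1 ± 1.58, 43.2 ± 2.75 and 31.0 ± 0.411 in control, Cd and Cd+OP. In these 6 groups the libraries of the highest condition did not overlap those of the other conditions. How often conditions separate in this way over all genes, as sums or as the single genes below, was not counted. In the order control, Cd, control+OP, Cd+OP, plastid genes summed to 26.6 ± 0.937, 25.5 ± 0.630, 20.9 ± 0.769 and 20.6 ± 1.01 FPKM, where control and Cd overlapped, as did control+OP and Cd+OP. All 68 genes together came to 694 ± 24.0, 691 ± 4.98, 844 ± 15.1 and 688 ± 9.55 FPKM in that order, highest in control+OP. Of these sums the dicarboxylate carriers alone made up 245, 279, 562 and 368 FPKM. The sums of starvation response, general transporter and PHO1-type genes were lowest in control+OP. Of the 37 tested genes 11 had their highest mean in control, 12 in Cd, 7 in control+OP and 7 in Cd+OP. The same count was not made over all tested genes, so whether this division differs from theirs is not known.

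**Figure D1:**
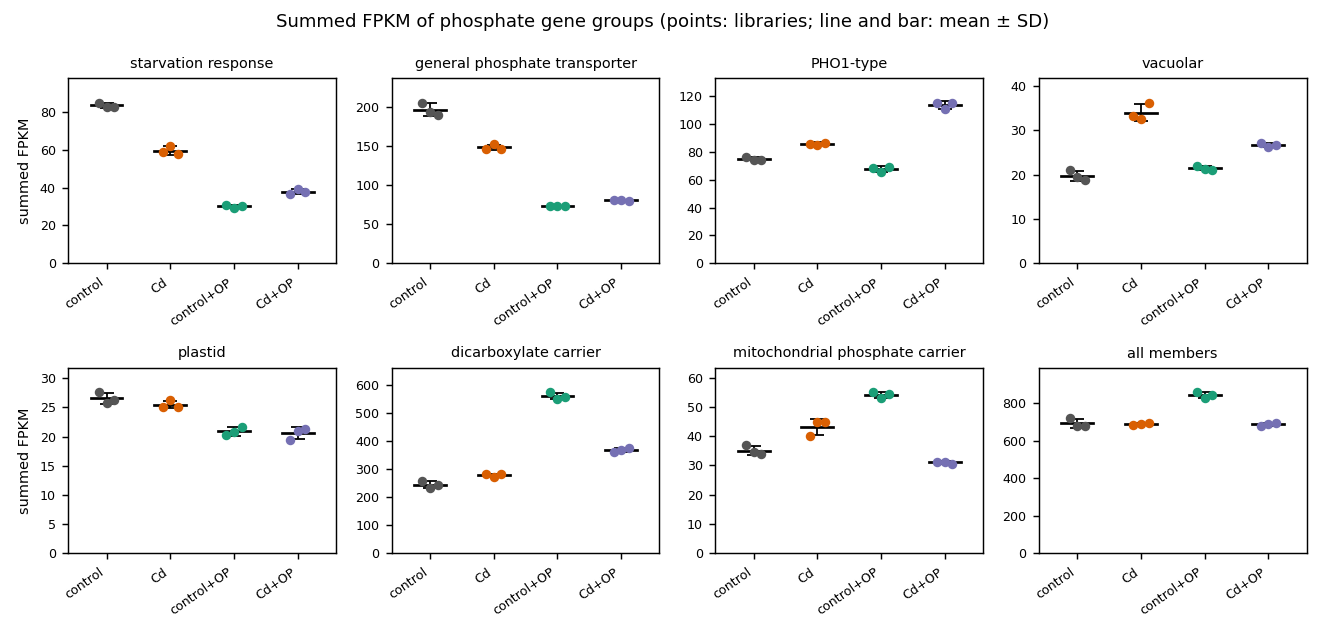
Summed FPKM (y axis) of each phosphate gene group in the 12 libraries by condition (x axis); points are libraries, the line and bar the mean ± SD. Starvation response genes and general phosphate transporters stand lowest in control+OP, PHO1-type genes highest in Cd+OP, vacuolar genes highest in Cd, and dicarboxylate carriers highest in control+OP.

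Control+OP against control asks how roots differ with the bacterium and without added Cd. Starvation response genes were lower in 7 of 7 tested and general phosphate transporters in 5 of 6, while 3 of 3 dicarboxylate carriers and 2 of 2 mitochondrial phosphate carriers were higher. Among the 7, GLYMA_03G032400 was tested only because of its high control libraries, so its lower call is not separate support. Of all 37 tested phosphate genes 13 were higher and 20 lower, where 34.6% of all tested genes were higher and 27.2% lower. The median log2 change was -0.29 over the phosphate genes and 0.0603 over all genes tested. The background of this comparison depended on the libraries fitted. Without any 1 control or Cd library, or with only the 2 groups, the median over all genes was 0.00271 to 0.00546, 27.7 to 30.8% of all genes were higher and 28.8 to 31.0% lower, and 10 to 11 phosphate genes were higher and 19 to 20 lower. PHO1-type genes split, with 3 of 10 higher and 5 lower, as did plastid genes with 2 of 5 higher and 3 lower. Root nodule marker genes had 21 of 28 tested genes higher and 6 lower, a median log2 change of 4.98 and a summed level of 1327 to 1418 FPKM in control and 1821 to 1894 in control+OP. Of that sum GLYMA_11G121800 made up 322 and GLYMA_13G114000 224 FPKM on average over the libraries. None of the 31 nodule genes was at 0 in every library. Phloem and xylem markers had 4 of 29 tested genes higher and 13 lower (sums 284 to 300.3 and 241 to 248 FPKM), and green tissue markers 6 of 50 tested genes higher and 20 lower (sums 281 to 302 and 204 to 208 FPKM). The part of these markers in the phosphate gene differences was not tested.

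Cd+OP against Cd asks the same under Cd. Starvation response genes were lower in 6 of 7 and general transporters in 5 of 6, and vacuolar and mitochondrial carrier genes were lower in 2 of 2 each. Among PHO1-type genes 5 of 10 were higher and 3 lower. Over the 37 genes 7 were higher and 23 lower, where 36.4% of all tested genes were higher and 34.6% lower, and the median log2 change was -0.49 against 0.00106 over all genes tested. In this comparison endodermis markers had 9 of 10 tested genes higher and 1 lower, with a median log2 change of 5.16 and a summed level of 98.1 to 101 FPKM in Cd and 126 to 133 in Cd+OP. Of the 12 genes on that list GLYMA_12G210400, at 99.4 FPKM on average, held most of the sum, and the other genes were at most 4.49. Root nodule markers had 16 of 28 tested genes higher and 5 lower (median log2 1.10), and phloem and xylem markers 16 of 29 tested genes higher and 6 lower. Their part in the phosphate gene differences was not tested.

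Cd against control asks how roots differ with the metal alone. Vacuolar genes were higher in 2 of 2, starvation response genes were lower in 4 of 7 and higher in 0, and general transporters were lower in 4 of 6 and higher in 2. Over the 37 genes 17 were higher and 15 lower, or 45.9% and 40.5%, where 37.6% and 38.7% of all tested genes were. Medians were 0.07 for the phosphate genes and 0.0029 for all genes tested. This background too depended on the libraries fitted. Without any 1 control or Cd library the median over all genes was -0.0549 to -0.0484. In those fits 32.7 to 33.1% of all genes were higher and 39.6 to 40.1% lower. Of the phosphate genes 14 to 16 were then higher and 15 to 16 lower. Endodermis markers had 0 of 10 tested genes higher and 9 lower, with a median log2 change of -4.69. Phloem and xylem markers had 6 of 29 tested genes higher and 18 lower, with a summed level of 284 to 300.3 FPKM in control and 139 to 143 in Cd. Nodule markers had 8 of 28 tested genes higher and 11 lower and a median log2 change of -0.0244, while their sums were 1327 to 1418 and 500.2 to 516 FPKM. Green tissue markers, which roots should hold little of, summed to 281 to 302 and 128 to 129.8 FPKM, with 4 of 209 genes at 0 in every library. The part of these markers in the result was not tested.

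Cd+OP against control+OP asks how Cd changes roots that also have the bacterium. PHO1-type genes were higher in 7 of 10 and lower in 2, and starvation response genes were higher in 4 of 7 and lower in 0. Dicarboxylate carriers were lower in 3 of 3 and mitochondrial phosphate carriers in 2 of 2. Over the 37 genes 15 were higher and 13 lower, where 33.6% and 33.1% of all tested genes were, and the medians were 0.06 and 0.00914. Nodule markers had 3 of 28 tested genes higher and 23 lower, with a median log2 change of -4.37 and sums of 1821 to 1894 FPKM in control+OP and 672 to 699 in Cd+OP, and root hair markers had 0 of 7 higher and 4 lower. Their part was not tested.

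The interaction tests whether the Cd difference was the same with and without OP. It was called for 35 of the 37 genes, 18 with a more positive Cd difference in the presence of OP and 17 with a more negative one, where 33.4% and 30.4% of all tested genes were called in these directions. Starvation response genes were positive in 6 of 7 and PHO1-type genes in 6 of 10. The interaction was negative for 3 of 3 dicarboxylate carriers, 2 of 2 mitochondrial carriers and 2 of 2 vacuolar genes. The comparisons share groups (control, for example, stands in Cd against control and in control+OP against control), so their values are set side by side below and not correlated. With genes of at least 5 FPKM, 25 phosphate genes could be tested. Of these 8 were higher and 13 lower for Cd against control, where 36.9% and 44% of all genes were. For Cd+OP against Cd 4 were higher and 16 lower (39% and 39.8% of all genes), and for control+OP against control 6 and 14 (34.7% and 35.7%). For Cd+OP against control+OP there were 9 and 8 (38.1% and 36.8%), and for the interaction 12 and 12 (40.3% and 32.1%).

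Starvation response genes here are those annotated with the response to phosphate shortage and with no transport term. The highest in level was GLYMA_17G114700 (chromosome 17, 9074437 to 9077350). It stood at 32.5, 32.0 and 32.3 FPKM in the control libraries, 19.4, 17.7 and 19.2 with Cd, 10.7, 10.3 and 10.7 with OP alone and 11.4, 10.9 and 11.8 with Cd+OP. Control libraries were highest and both OP groups lowest, and no 2 groups overlapped. Against control its level was lower with OP (log2 -1.61 ± 0.0612, adjusted p = 1.61e-17, edgeR) and with Cd (log2 -0.78 ± 0.0590, adjusted p = 1.06e-11), and under Cd it was lower with OP (log2 -0.80 ± 0.0611, adjusted p = 1.58e-11). GLYMA_13G166800 (chromosome 13, 28161946 to 28164623) had 20.4, 19.2 and 19.9 FPKM in the control libraries, 12.8, 15.4 and 13.7 with Cd, 6.44, 6.29 and 8.19 with OP alone and 9.72, 9.60 and 9.06 with Cd+OP. Its order was the same, and its level in Cd+OP lay above that in control+OP (log2 0.37 ± 0.0985), with groups that did not overlap. This gene and GLYMA_17G114700, as well as GLYMA_04G147600 and GLYMA_13G061700 below, fall outside the rule for named genes and were chosen after their values were seen, to show all 7 tested starvation genes.

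GLYMA_01G135500 (chromosome 1, 45776779 to 45781199) had the largest fall of the tested phosphate genes with OP and without Cd. It was at 8.07, 7.89 and 7.98 FPKM in the control libraries, 6.38, 7.06 and 5.79 with Cd, 1.37, 1.87 and 1.51 with OP alone and 3.16, 3.50 and 3.23 with Cd+OP. The control+OP libraries were the lowest and no groups overlapped, with log2 -2.32 ± 0.125, adjusted p = 2.05e-14 for OP without Cd and log2 -1.03 ± 0.117, adjusted p = 2.33e-08 for OP under Cd (edgeR). With OP present its level was higher under Cd (log2 0.97 ± 0.129), whereas without OP it was lower under Cd (log2 -0.31 ± 0.112), and the interaction was log2 1.29 ± 0.171, adjusted p = 4.01e-07. GLYMA_06G069000 (chromosome 6, 5290220 to 5291905) showed 4.92, 5.01 and 4.16 FPKM in the control libraries, 4.05, 4.60 and 3.08 with Cd, 1.03, 0.775 and 1.11 with OP alone and 2.41, 2.90 and 2.40 with Cd+OP. Control and Cd overlapped for it, and control+OP lay below all other groups (log2 -2.26 ± 0.196, adjusted p = 2.47e-10 against control). Under Cd its fall with OP was log2 -0.67 ± 0.180, and the interaction was log2 1.59 ± 0.265, adjusted p = 1.19e-05. GLYMA_03G032400, near the limit of testing, stood at 1.49, 1.98 and 1.86 FPKM in the control libraries, 1.56, 1.23 and 0.899 with Cd, 0.772, 0.434 and 0.472 with OP alone and 1.02, 1.34 and 1.08 with Cd+OP. Control+OP was again lowest and overlapped no other group (log2 -1.65 ± 0.265), and the Cd+OP libraries lay within the range of Cd, where its change was not called. Only its control libraries brought it to the mean of 1 FPKM, so its fall against control is not separate from the filter.

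GLYMA_04G147600 fell with OP from 10.5 ± 0.672 to 4.43 ± 0.449 FPKM (log2 -1.24 ± 0.101) and under Cd from 8.82 ± 0.635 to 5.06 ± 0.352 (log2 -0.87 ± 0.1002). Its interaction was called (log2 0.37 ± 0.142) but not without control+OP library 2 (log2 0.34, adjusted p = 0.0566), control+OP library 3 (log2 0.33, adjusted p = 0.0607) or Cd+OP library 3 (log2 0.31, adjusted p = 0.0738). GLYMA_13G061700 (chromosome 13, 15887905 to 15891224) is described as SPX domain gene 4 by projection from Arabidopsis, where SPX4 keeps the main starvation transcription factors out of action while phosphate is ample. Its fall with OP without Cd was the smallest of the 7. Values were 5.85, 6.16 and 5.58 FPKM in the control libraries, 5.07, 6.68 and 7.10 with Cd, 5.17, 4.91 and 3.98 with OP alone and 3.91, 5.32 and 4.22 with Cd+OP. Cd and Cd+OP overlapped, and its call for control+OP against control (log2 -0.32 ± 0.137, adjusted p = 0.0475, edgeR) ended in the fits without control library 2, control+OP library 2 or 3 or Cd+OP library 3 (adjusted p = 0.0788, 0.0558, 0.216 and 0.0519) and in limma on log2(FPKM + 1) and log2(FPKM + 0.1) (adjusted p = 0.0521 and 0.0566). Under Cd its fall with OP was log2 -0.56 ± 0.137, adjusted p = 0.00086. Over the 7 genes the median log2 change with OP was -1.61 without Cd and -0.67 under Cd, and with Cd it was -0.31 without OP and 0.37 with it.

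**Figure D2:**
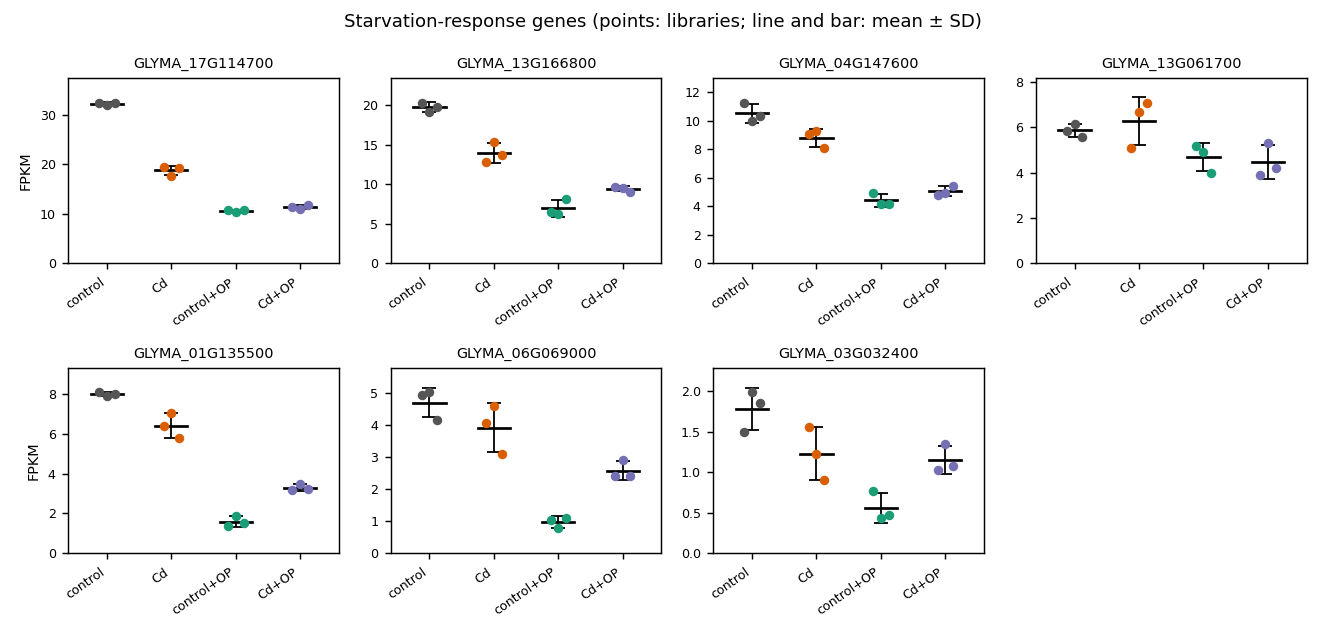
FPKM (y axis) of the 7 tested starvation response genes in each library by condition (x axis); points are libraries, the line and bar the mean ± SD. In 6 of the 7 genes the control libraries lie far above the control+OP libraries, and GLYMA_13G061700 differs least.

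General phosphate transporter genes are annotated with phosphate ion transport, without the vacuole, plastid, mitochondrial carrier or symporter terms that set other groups. This grouping does not settle their compartment or direction. GLYMA_10G006700 (chromosome 10, 662561 to 665361) was the highest in level of these. It stood at 85.7, 79.6 and 78.1 FPKM in the control libraries, 55.2, 58.3 and 55.5 with Cd, 24.96, 25.1 and 23.0 with OP alone and 35.6, 35.6 and 33.3 with Cd+OP. No groups overlapped, control being the highest and control+OP the lowest, with log2 -1.73 ± 0.0398, adjusted p = 5.18e-22 for OP without Cd and log2 -0.77 ± 0.0389 for OP under Cd (edgeR). Cd alone lowered it (log2 -0.52 ± 0.0382), and in roots with OP it was higher under Cd (log2 0.44 ± 0.0398). GLYMA_03G162800 (chromosome 3, 37771714 to 37775073) had 44.0, 39.8 and 40.5 FPKM in the control libraries, 36.4, 37.1 and 35.5 with Cd, 13.2, 13.2 and 14.2 with OP alone and 9.38, 9.29 and 9.57 with Cd+OP. It was the phosphate gene with the largest fall in Cd+OP against Cd (log2 -2.02 ± 0.0417, adjusted p = 3.8e-23), and it was lowest in Cd+OP, not in control+OP. Without Cd its fall with OP was log2 -1.61 ± 0.0405, and no groups overlapped.

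GLYMA_10G186500 (chromosome 10, 41946209 to 41950274) read 44.2, 44.2 and 43.2 FPKM in the control libraries, 25.9, 27.1 and 26.4 with Cd, 19.1, 18.7 and 19.6 with OP alone and 19.6, 20.2 and 20.2 with Cd+OP. Control libraries were highest and the 2 OP groups overlapped. It fell with OP (log2 -1.19 ± 0.0342 without Cd and -0.48 ± 0.0342 under Cd) and with Cd (log2 -0.73 ± 0.0337). GLYMA_02G005800 (chromosome 2, 634487 to 639201) was at 22.0, 20.6 and 19.6 FPKM in the control libraries, 23.0, 22.6 and 23.2 with Cd, 7.75, 8.54 and 8.61 with OP alone and 10.5, 11.03 and 11.2 with Cd+OP. Both OP groups lay far below both groups without OP (log2 -1.31 ± 0.0461 without Cd and -1.15 ± 0.0453 under Cd). Its small rise with Cd (log2 0.15 ± 0.0439, adjusted p = 0.00332) lost its call without control library 2 or 3 or Cd library 1, 2 or 3 (log2 0.10, 0.07, 0.09, 0.11 and 0.09) and with genes of at least 5 FPKM (adjusted p = 0.0532).

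GLYMA_20G204000 (chromosome 20, 44094584 to 44098582) had 8.44, 7.51 and 7.74 FPKM in the control libraries, 4.01, 4.13 and 3.67 with Cd, 3.96, 4.06 and 4.08 with OP alone and 4.37, 4.19 and 4.29 with Cd+OP. Only the control libraries stood apart, near 8 FPKM, and the other 3 groups lay near 4 FPKM. It fell with Cd (log2 -1.001 ± 0.0719, adjusted p = 3.62e-12) and with OP (log2 -0.96 ± 0.0719, adjusted p = 1.35e-11), and its interaction was log2 1.01 ± 0.102. GLYMA_19G164300 was the only tested gene of the group not called lower with OP alone. It was highest in Cd at 2.13, 2.84 and 1.59 FPKM and lowest in Cd+OP at 0.711, 0.970 and 1.19, with 1.28, 1.43 and 1.22 in control and 1.69, 1.56 and 1.68 in control+OP, where Cd and control+OP overlapped. Its rise with Cd was log2 0.74 ± 0.181 and its fall in Cd+OP against Cd log2 -1.26 ± 0.185, adjusted p = 1.44e-06 (edgeR).

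**Figure D3:**
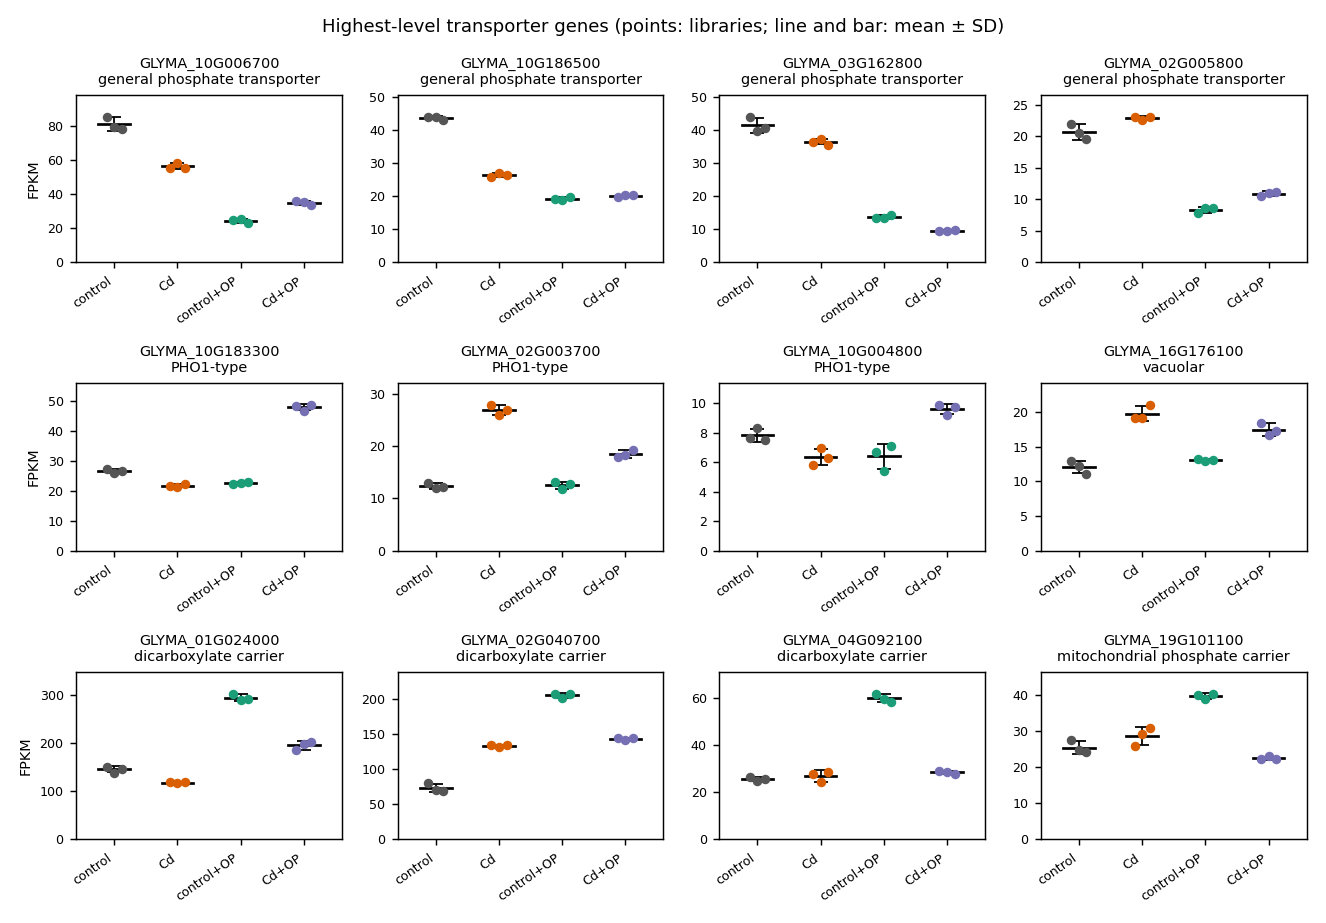
FPKM (y axis) of 12 transporter and carrier genes with high levels in each library by condition (x axis); points are libraries, the line and bar the mean ± SD. General phosphate transporters are low in both OP groups, GLYMA_10G183300 is high in Cd+OP, and the dicarboxylate carriers are high in control+OP.

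PHO1-type genes are the group annotated with inositol hexakisphosphate binding, and PHO1 in Arabidopsis exports phosphate into the xylem. GLYMA_10G183300 (chromosome 10, 41633437 to 41645279) was the highest in level. It was at 27.1, 25.8 and 26.7 FPKM in the control libraries, 21.7, 21.1 and 22.3 with Cd, 22.2, 22.5 and 22.9 with OP alone and 48.1, 46.6 and 48.5 with Cd+OP. The Cd+OP libraries stood far above all others, which lay within a narrow range. In Cd+OP against Cd it rose by log2 1.07 ± 0.0377, adjusted p = 2.35e-18, and against control+OP by log2 1.01 ± 0.0377, adjusted p = 2.3e-17 (edgeR). Without Cd it was slightly lower with OP (log2 -0.23 ± 0.0380), and the interaction was log2 1.30 ± 0.0535, adjusted p = 9.32e-17. GLYMA_20G032400 (chromosome 20, 4183317 to 4191520) had 6.75, 7.08 and 6.75 FPKM in the control libraries, 4.34, 3.61 and 4.35 with Cd, 8.06, 7.42 and 8.33 with OP alone and 11.2, 11.1 and 10.5 with Cd+OP. It was lowest in Cd and highest in Cd+OP, with no overlap of groups and the largest rise of any tested phosphate gene in Cd+OP against Cd (log2 1.34 ± 0.0772, adjusted p = 5.68e-14).

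GLYMA_02G130200 (chromosome 2, 13340016 to 13346701) showed the largest rise of the tested phosphate genes with Cd in roots with OP. Its levels were 2.75, 2.24 and 2.58 FPKM in the control libraries, 3.17, 3.71 and 3.62 with Cd, 0.895, 0.842 and 1.04 with OP alone and 4.90, 4.17 and 4.65 with Cd+OP. Control+OP was lowest and Cd+OP highest, with log2 2.22 ± 0.120, adjusted p = 2.78e-14 between them and an interaction of log2 1.75 ± 0.162, adjusted p = 8.87e-10 (edgeR). The smaller difference of Cd+OP and Cd (log2 0.31 ± 0.107) lost its call without Cd library 1 (log2 0.24, adjusted p = 0.0743) or Cd+OP library 1 (log2 0.26, adjusted p = 0.0714). GLYMA_20G032500 stood at 2.004 ± 0.262, 3.34 ± 0.335, 1.07 ± 0.146 and 2.50 ± 0.204 FPKM in control, Cd, control+OP and Cd+OP, with rises under Cd of log2 0.74 ± 0.131 without OP and 1.14 ± 0.139 with it. GLYMA_20G032400, GLYMA_20G032500 and GLYMA_20G032600 are neighbours on chromosome 20, 2770 and 2303 bases apart. Without OP they did not share a pattern: the first fell with Cd and the second rose. With OP both of these were higher under Cd, 1.305-fold and 2.208-fold. The last was at 0.0119 FPKM on average.

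Other PHO1-type genes were highest with Cd alone. GLYMA_02G003700 (chromosome 2, 431852 to 445384) was at 13.0, 11.9 and 12.2 FPKM in the control libraries, 27.9, 26.1 and 26.9 with Cd, 13.1, 11.7 and 12.8 with OP alone and 17.9, 18.2 and 19.3 with Cd+OP. Control and control+OP overlapped, Cd was highest (log2 1.12 ± 0.0479, adjusted p = 8.52e-17), and Cd+OP lay between (log2 -0.62 ± 0.0469 against Cd). GLYMA_18G261900 (chromosome 18, 54775190 to 54781535) had 3.96, 3.96 and 4.03 FPKM in the control libraries, 8.63, 8.25 and 8.84 with Cd, 7.27, 7.31 and 6.07 with OP alone and 5.82, 5.61 and 5.96 with Cd+OP. It rose with Cd (log2 1.11 ± 0.0766, adjusted p = 1.65e-12) and with OP (log2 0.79 ± 0.0768, adjusted p = 1.9e-09) but was lower in Cd+OP than with either treatment alone, with an interaction of log2 -1.43 ± 0.107. GLYMA_07G228400 was lowest in Cd, at 1.87 ± 0.188 FPKM against 3.39 ± 0.136 in control (log2 -0.85 ± 0.0972). Near relatives among the PHO1-type genes may share reads, and the deposited table does not show how these were counted, so their separate values are uncertain.

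Vacuolar genes are annotated with the vacuole, the cell's main store of phosphate. Both tested genes were highest in Cd. GLYMA_09G128500 (chromosome 9, 32046109 to 32052575) was at 8.10, 7.20 and 7.52 FPKM in the control libraries, 14.0, 13.1 and 15.0 with Cd, 8.67, 8.22 and 7.98 with OP alone and 8.57, 9.34 and 9.39 with Cd+OP. The Cd libraries stood far above the rest, with log2 0.89 ± 0.0602, adjusted p = 1.21e-12 against control and log2 -0.69 ± 0.0597, adjusted p = 1.47e-10 for Cd+OP against Cd (edgeR). GLYMA_16G176100 (chromosome 16, 33736441 to 33742693), named after its values were seen as the other tested gene of this group, had 12.9, 12.2 and 11.1 FPKM in the control libraries, 19.1, 19.2 and 21.0 with Cd, 13.2, 13.0 and 13.1 with OP alone and 18.5, 16.7 and 17.2 with Cd+OP. Both groups with Cd lay above both without, with log2 0.72 ± 0.0514 without OP and 0.34 ± 0.0513 with it. Its rise with OP alone (log2 0.12 ± 0.0520, adjusted p = 0.0414) lost its call in 16 of 21 alternative fits, among them each fit without 1 control or 1 control+OP library (log2 0.02, adjusted p = 0.801 without control library 3).

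**Figure D4:**
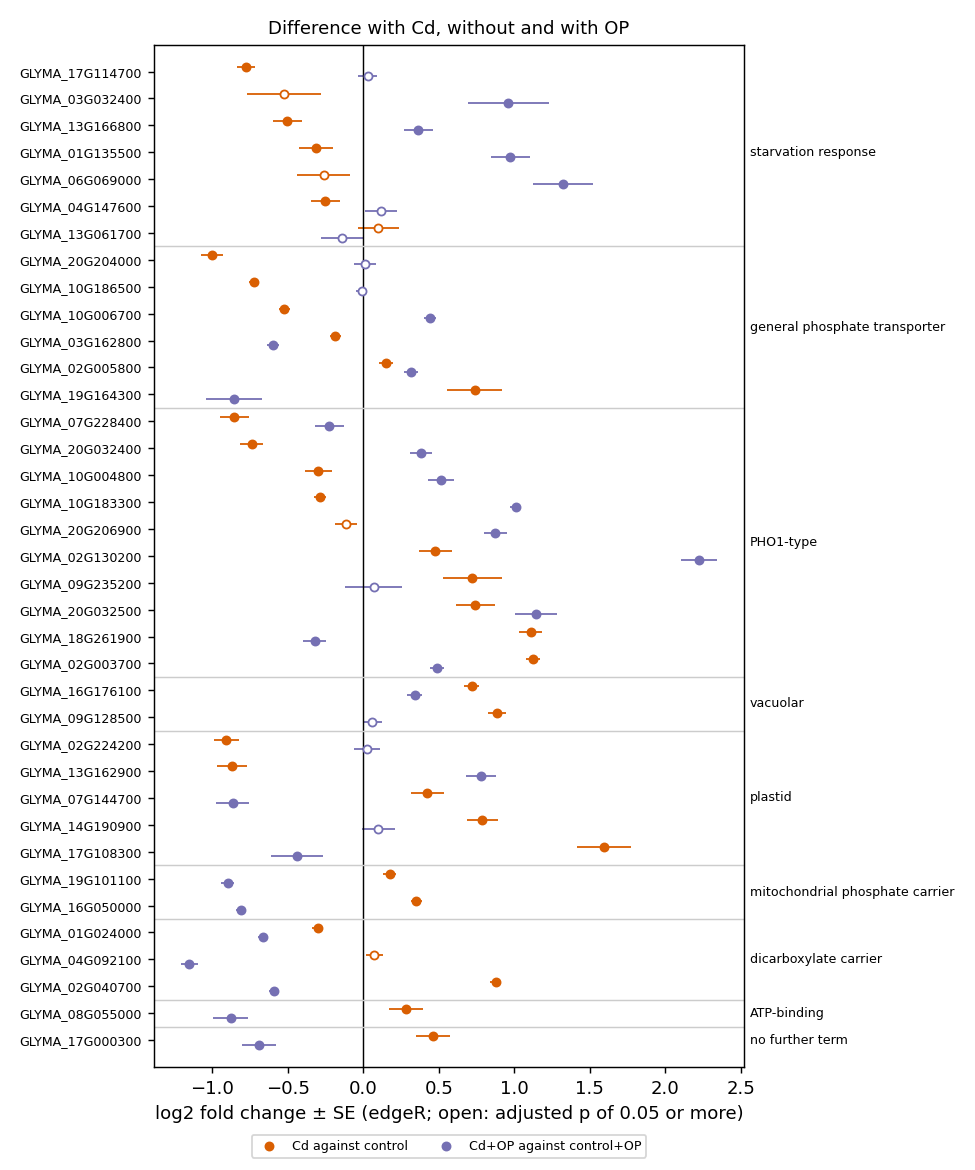
Log2 fold change ± SE from edgeR (x axis) of the 37 tested phosphate genes (y axis, by group) for Cd against control and for Cd+OP against control+OP; open points have an adjusted p of 0.05 or more. Of the 7 starvation response genes 4 are called lower without OP and 4 higher with OP, and the mitochondrial and dicarboxylate carriers are called lower with OP.

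Dicarboxylate carrier genes, annotated with the antiport of malate, succinate, oxaloacetate, sulfate and thiosulfate as well as phosphate transport, held the 2 highest levels of all 68 genes. GLYMA_01G024000 (chromosome 1, 2455767 to 2457198) stood at 151, 139 and 147 FPKM in the control libraries, 119, 117 and 118 with Cd, 304, 290.1 and 292 with OP alone and 186, 198 and 204 with Cd+OP. The control+OP libraries were the highest, Cd+OP next and Cd the lowest, with no overlap. It rose with OP without Cd (log2 1.02 ± 0.0338, adjusted p = 9.06e-19) and under Cd (log2 0.66 ± 0.0339, adjusted p = 5.61e-15). GLYMA_02G040700 (chromosome 2, 3830530 to 3832064) was at 79.6, 69.7 and 69.1 FPKM in the control libraries, 134, 131 and 135 with Cd, 208, 201 and 207 with OP alone and 144, 141 and 145 with Cd+OP. Control was lowest and control+OP highest, with log2 1.502 ± 0.0363, adjusted p = 1.34e-21 between them, and Cd alone raised it too (log2 0.88 ± 0.0360). Its level in Cd+OP lay just above that in Cd and the difference was not called. GLYMA_04G092100 (chromosome 4, 8110169 to 8111329) had 26.3, 24.6 and 25.5 FPKM in the control libraries, 27.6, 24.0 and 28.6 with Cd, 61.7, 59.5 and 58.2 with OP alone and 29.0, 28.3 and 27.7 with Cd+OP. Only control+OP stood apart (log2 1.24 ± 0.0547, adjusted p = 3.47e-16), and the other 3 groups lay between 24.0 and 29.0 FPKM. With OP present all 3 genes were lower under Cd (log2 -0.67 ± 0.0335, -0.59 ± 0.0353 and -1.15 ± 0.0544).

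Mitochondrial phosphate carriers bring phosphate into the mitochondrion for ATP synthesis. GLYMA_19G101100 (chromosome 19, 34833393 to 34841869) was at 27.3, 24.7 and 24.0 FPKM in the control libraries, 25.9, 29.1 and 30.6 with Cd, 40.0, 38.7 and 40.3 with OP alone and 22.1, 22.9 and 22.2 with Cd+OP. Control+OP was highest and Cd+OP lowest, with log2 0.65 ± 0.0438, adjusted p = 1.66e-12 for OP without Cd and log2 -0.42 ± 0.0440, adjusted p = 5.15e-09 for OP under Cd (edgeR). Control and Cd overlapped, and its rise with Cd (log2 0.18 ± 0.0438) lost its call without control library 3 (log2 0.09, adjusted p = 0.0929) or Cd library 3 (log2 0.07, adjusted p = 0.162). GLYMA_16G050000, the other tested carrier and named after its values were seen, had the same order: 8.26 ± 0.315, 10.5 ± 0.0800, 11.6 ± 0.411 and 6.96 ± 0.105 FPKM. It rose with OP without Cd (log2 0.49 ± 0.0361) and fell with OP under Cd (log2 -0.67 ± 0.0364). GLYMA_16G050100 lies wholly within its span on the same strand, over 2009 bases, so reads of the 2 cannot be told apart with certainty. That gene stood at 0 to 0.0125 FPKM in Cd+OP and 0.0420 to 1.70 in Cd, so its Cd libraries differed widely among themselves.

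Plastid transporters exchange phosphate and its compounds between that organelle and the cytosol. The 5 tested genes moved apart from each other. GLYMA_02G224200 (chromosome 2, 41175313 to 41180091) was at 14.7, 14.0 and 14.4 FPKM in the control libraries, 7.88, 7.44 and 7.62 with Cd, 6.33, 6.72 and 8.08 with OP alone and 7.19, 7.45 and 7.98 with Cd+OP. Only control stood apart, with falls of log2 -0.91 ± 0.0822 with Cd and -1.02 ± 0.0827 with OP. GLYMA_13G162900 (chromosome 13, 27823310 to 27833374) had 2.82, 2.50 and 2.91 FPKM in the control libraries, 1.55, 1.42 and 1.52 with Cd, 1.94, 2.11 and 1.92 with OP alone and 3.59, 3.47 and 3.77 with Cd+OP. It was lowest in Cd and highest in Cd+OP, rising between them by log2 1.19 ± 0.1001, adjusted p = 9.54e-11 (edgeR). GLYMA_14G190900 had 5.34, 4.13 and 4.55 FPKM in the control libraries, 7.18, 8.63 and 8.33 with Cd, 3.45, 3.61 and 3.43 with OP alone and 3.81, 4.26 and 3.77 with Cd+OP. Cd was highest for it, with log2 0.79 ± 0.102 against control and -1.10 ± 0.103 for Cd+OP against Cd.

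GLYMA_17G108300 (chromosome 17, 8486013 to 8495685) had the largest rise with Cd alone of the tested phosphate genes and also rose with OP alone. Its levels were 0.722, 0.876 and 0.619 FPKM in the control libraries, 2.18, 2.53 and 2.01 with Cd, 1.87, 1.93 and 1.46 with OP alone and 1.36, 1.28 and 1.45 with Cd+OP. Control was lowest (log2 1.60 ± 0.180, adjusted p = 1.71e-08 with Cd and log2 1.25 ± 0.181, adjusted p = 1.66e-06 with OP), and Cd+OP lay below either treatment alone, with the most negative interaction of the tested phosphate genes (log2 -2.03 ± 0.249, adjusted p = 1.14e-07). Its difference of Cd+OP and control+OP (log2 -0.44 ± 0.173) lost its call without control+OP library 1 (log2 -0.40, adjusted p = 0.0837), control+OP library 2 (log2 -0.36, adjusted p = 0.114), Cd+OP library 1 (log2 -0.44, adjusted p = 0.0568) or Cd+OP library 2 (log2 -0.38, adjusted p = 0.0913). It also lost it with limma on log2(FPKM + 1) (log2 -0.22, adjusted p = 0.0615) and log2(FPKM + 0.1) (log2 -0.33, adjusted p = 0.0858) and with no filter (log2 -0.40, adjusted p = 0.0569). GLYMA_07G144700 was highest in control+OP, at 5.07, 5.10 and 5.23 FPKM against 2.75, 3.13 and 2.72 in control and 2.61, 3.15 and 3.13 in Cd+OP (log2 0.84 ± 0.109 and -0.87 ± 0.109). The ATP-binding gene GLYMA_08G055000, described by a phosphate transport system permease domain projected from rice and annotated also with UDP-glucose transport and the response to aluminium, was at 6.51, 9.03 and 7.86 FPKM in the control libraries, 8.80, 9.97 and 9.74 with Cd, 10.03, 8.83 and 9.41 with OP alone and 5.41, 4.86 and 5.89 with Cd+OP. Cd+OP stood below all other groups, which overlapped (log2 -0.89 ± 0.117 against Cd and -0.88 ± 0.117 against control+OP).

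**Figure D5:**
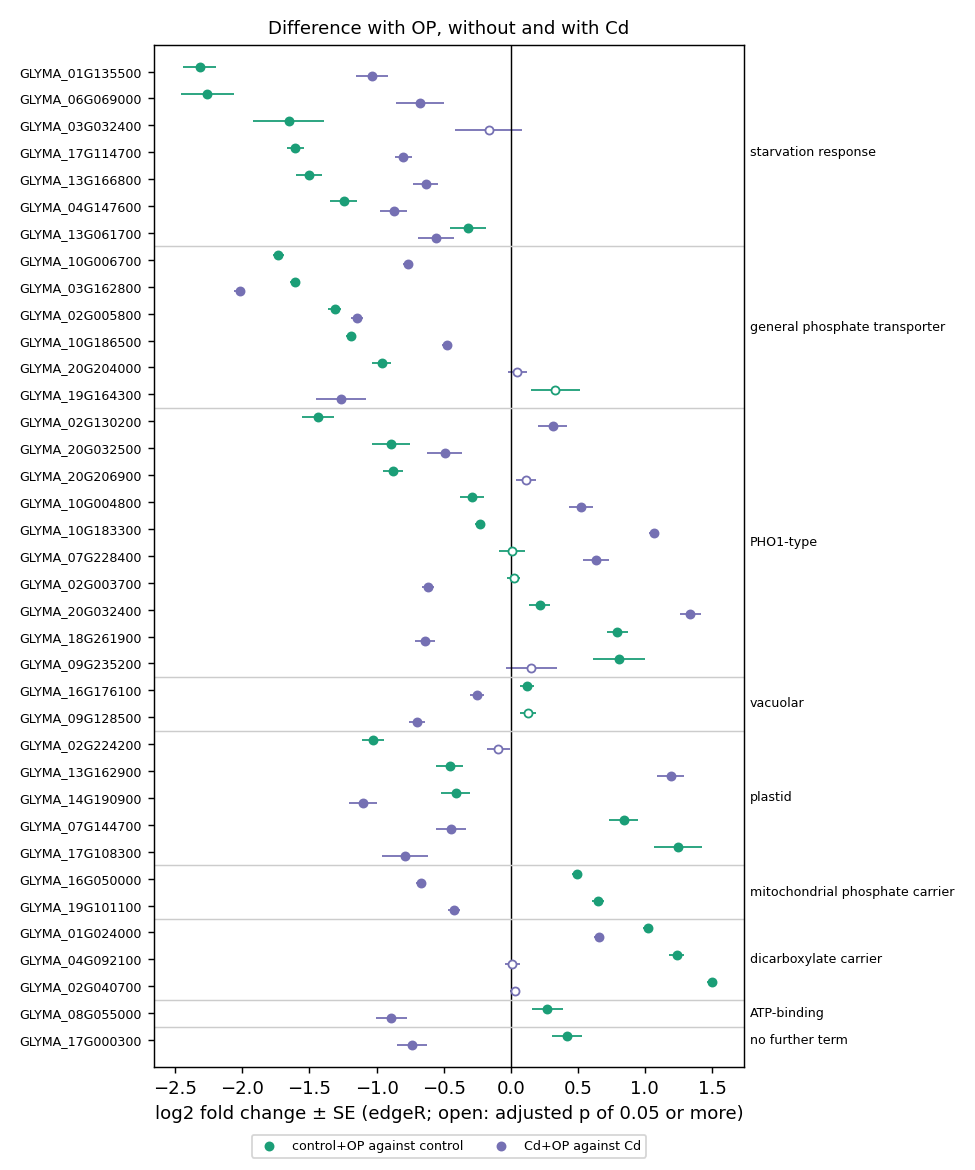
Log2 fold change ± SE from edgeR (x axis) of the 37 tested phosphate genes (y axis, by group) for control+OP against control and for Cd+OP against Cd; open points have an adjusted p of 0.05 or more. Starvation response genes and 5 of 6 general phosphate transporters are called lower without Cd, dicarboxylate carriers are called higher without Cd, and mitochondrial carriers change side.

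The 31 genes under a mean of 1 FPKM were not tested in the counts above. In a fit with no filter, over all genes with counts, 7 of them were higher and 2 lower for Cd against control, 2 and 6 for Cd+OP against Cd, 5 and 1 for control+OP against control, 2 and 2 for Cd+OP against control+OP, and 2 and 10 for the interaction. Of all genes in that fit 26.9% and 29.8%, 27.5% and 24.1%, 20.7% and 20.9%, 25% and 21.8%, and 25.8% and 19.1% were called in these directions. These shares are over 48315 genes of every level. With the filter they were 37.6% and 38.7% for Cd against control. The share among genes under 1 FPKM alone was not computed, so the counts of the 31 have no background of like level. Genes of the 31 named here were chosen after their values were seen. GLYMA_10G036800, a general phosphate transporter (chromosome 10, 3233051 to 3236286), was at 0.182, 0.138 and 0.181 FPKM in the control libraries, 0.233, 0.108 and 0.251 with Cd, 2.12, 1.82 and 2.02 with OP alone and 0.177, 0.155 and 0.106 with Cd+OP. It stood out in control+OP alone, against the direction of the tested general transporters, with log2 3.48 ± 0.260, adjusted p = 1.54e-09 against control and log2 -3.77 ± 0.265, adjusted p = 7.7e-10 for Cd+OP against control+OP (edgeR with no filter). GLYMA_16G146700, a mitochondrial phosphate carrier (chromosome 16, 30755899 to 30759360), had 0.155, 0.0953 and 0.122 FPKM in the control libraries, 1.74, 1.65 and 1.74 with Cd, 0.0951, 0.173 and 0.193 with OP alone and 0.643, 0.218 and 0.402 with Cd+OP. It was highest in Cd and did not overlap the other groups, with log2 3.75 ± 0.387, adjusted p = 9.21e-08 against control and log2 -2.09 ± 0.341, adjusted p = 3.49e-05 for Cd+OP against Cd. GLYMA_01G091800, a PHO1-type gene, was highest in Cd+OP at 1.19, 0.834 and 1.21 FPKM, as GLYMA_10G183300 was, with 0.304 to 0.531 FPKM in Cd (log2 1.33 ± 0.256, adjusted p = 0.000205). The starvation gene GLYMA_20G129000 was at 0.341 to 0.461 FPKM in control and at 0 in 2 of 3 Cd libraries, a level too low to rank the other groups. Neighbouring pairs could differ in level: GLYMA_10G186400 lies 6947 bases from GLYMA_10G186500 and reached at most 0.240 FPKM, and GLYMA_20G204100 lies 4967 bases from GLYMA_20G204000 and reached at most 0.0859 FPKM.

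Other genes of phosphate use were counted from lists set by annotation terms, leaving out the 68. Acid phosphatases, which free phosphate from organic compounds, had 10 of 49 tested genes higher and 29 lower with Cd, 15 of 49 tested genes higher and 18 lower with OP, and 21 of 49 tested genes higher and 12 lower in Cd+OP against Cd. Their summed level was 445 to 470.5 FPKM in control, 373 to 377 with Cd, 596 to 612 with OP and 452 to 461 with both, so it was highest in control+OP, where the summed starvation response genes were lowest. Lipid remodelling genes, which replace phospholipids by galactolipids and sulfolipids, had 6 of 17 tested genes higher and 10 lower with Cd and 3 of 17 tested genes higher and 8 lower with OP. Their sum of 507 to 541 FPKM in control stood above the other groups, at 293 to 301 with OP, 298 to 303 with Cd and 345 to 352 with both.

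Ribonuclease T2 genes, whose products release phosphate from RNA, had 3 of 9 tested genes higher and 6 lower with Cd and 2 of 9 tested genes higher and 6 lower with OP. Phosphoenolpyruvate carboxylase genes, which feed organic acid synthesis, had 1 of 8 tested genes higher and 6 lower with Cd and 5 of 8 tested genes higher and 3 lower in Cd+OP against Cd, with sums of 132 to 138 FPKM in control and 76.6 to 79.1 in Cd. Inorganic diphosphatases had 4 of 19 tested genes higher and 13 lower with Cd and 11 of 19 tested genes higher and 6 lower with OP. Inositol polyphosphate kinases, which make the inositol phosphates that SPX domains bind, had 8 of 16 tested genes higher and 3 lower with Cd and 6 of 16 tested genes higher and 3 lower with OP, and their sum was 107 to 112 FPKM in control and 161 to 165 in Cd+OP. The percentages of all genes called, given above for each comparison, apply to these counts too.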

How the data were processed

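Per the labels, root total RNA was taken up in TRIzol and run on an Illumina NovaSeq, with 3 libraries per group. The deposited table gives, per gene and library, estimated counts and FPKM values made by the authors. The software that aligned and counted reads, the genome build and the annotation were not given in the sources used here. These deposited counts are whole numbers but not a plain tally of reads, since the value 4 occurred 10000 times, 3 only 5019 times and 5 only 3231 times, and they were used as deposited. Gene positions are those of the table. Identifiers of 0 of the 68 genes matched the reference gene table, and no sequence is shown.

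Counts were tested with edgeR 4.0.16 (R 4.3.3; quasi-likelihood test, two-sided, TMM scaling, 1 mean per group over all 12 libraries) over the 30340 genes whose mean reached 1 FPKM, adjusted by Benjamini-Hochberg over all of them, and called under 0.05. SE is the log2 fold change divided by the square root of F. The biological coefficient of variation was 0.0796. FPKM values served for levels. The SE covers counting error and the spread between libraries of a group, which may be technical. The script was tested on simulated data. DESeq2 1.42.0, limma 3.58.1 on log2(FPKM + 1) and log2(FPKM + 0.1), median of ratios scaling, other filters (none, and a mean of at least 5 FPKM), a fit of only the groups compared, a replicate block, counts divided by 4 and each library left out were alternatives.

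The genes, groups and marker lists were chosen with earlier results of these data known. By rule, genes named are the 8 with the highest mean FPKM. Per comparison they are also the 4 highest and 4 lowest log2 fold changes among called genes. Other genes fall outside this rule and were named with their values seen, also where this is not stated beside them. The marker genes GLYMA_11G121800, GLYMA_13G114000 and GLYMA_12G210400 were picked for their level, and the flagged interactions list every called gene.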

Additional observations from a re-analysis of the deposited data

Results flagged for a closer look

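The difference made by Cd was not the same with and without OP for 35 of the 37 tested phosphate genes, by edgeR's test of the interaction at an adjusted p under 0.05; 33.4% of all tested genes were called positive and 30.4% negative. Values are log2 interactions, positive where the Cd difference was more positive with OP. Among starvation response genes they were GLYMA_04G147600 (0.37), GLYMA_17G114700 (0.81), GLYMA_13G166800 (0.87), GLYMA_01G135500 (1.29), GLYMA_03G032400 (1.49) and GLYMA_06G069000 (1.59). For general phosphate transporters they were GLYMA_19G164300 (-1.59), GLYMA_03G162800 (-0.41), GLYMA_02G005800 (0.17), GLYMA_10G186500 (0.71), GLYMA_10G006700 (0.97) and GLYMA_20G204000 (1.01). PHO1-type genes gave GLYMA_18G261900 (-1.43), GLYMA_09G235200 (-0.65), GLYMA_02G003700 (-0.64), GLYMA_07G228400 (0.63), GLYMA_10G004800 (0.81), GLYMA_20G206900 (0.99), GLYMA_20G032400 (1.12), GLYMA_10G183300 (1.30) and GLYMA_02G130200 (1.75). Of these, the call of GLYMA_09G235200 ended in 12 of 21 alternative fits: both limma fits, no filter, and the fits without control library 1, 2 or 3, Cd library 1 or 2, control+OP library 1 or 3, or Cd+OP library 2 or 3, with values from -0.81 to -0.25 over all alternatives (adjusted p up to 0.169). That of GLYMA_02G005800 ended without control+OP library 1 (log2 0.11, adjusted p = 0.11) or Cd+OP library 3 (log2 0.14, adjusted p = 0.0714), and that of GLYMA_04G147600 without control+OP library 2 or 3 or Cd+OP library 3 (log2 0.34, 0.33 and 0.31). Vacuolar genes gave GLYMA_09G128500 (-0.82) and GLYMA_16G176100 (-0.38), and plastid genes GLYMA_17G108300 (-2.03), GLYMA_07G144700 (-1.29), GLYMA_14G190900 (-0.69), GLYMA_02G224200 (0.93) and GLYMA_13G162900 (1.65). The mitochondrial phosphate carriers stood at GLYMA_16G050000 (-1.16) and GLYMA_19G101100 (-1.07), and the dicarboxylate carriers at GLYMA_02G040700 (-1.47), GLYMA_04G092100 (-1.23) and GLYMA_01G024000 (-0.36). The ATP-binding gene was GLYMA_08G055000 (-1.16), and the gene with no further term was GLYMA_17G000300 (-1.15). The part of nodule, endodermis and vascular markers, which moved between the same groups, was not tested.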

How the results depend on the processing

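Of 158 called gene comparisons, refitted under 21 alternatives where these left the gene tested, 3139 values kept direction and call, 92 lost the call and 0 reversed; 14 gene comparisons lost it at least once. With genes of a mean of at least 5 FPKM, 25 of the 68 genes are left by construction, and higher and lower counts were 8 and 13 for Cd against control, 4 and 16 for Cd+OP against Cd, 6 and 14 for control+OP against control, and 9 and 8 for Cd+OP against control+OP. With no filter, where all 68 genes were tested, 20 had a positive and 26 a negative interaction, against 25.8% and 19.1% of all genes. Leaving out 1 library at a time gave 14 to 17 higher and 15 to 16 lower for Cd against control, 6 to 7 and 23 to 23 for Cd+OP against Cd, 10 to 13 and 18 to 20 for control+OP against control, 15 to 15 and 11 to 13 for Cd+OP against control+OP, and 16 to 19 and 16 to 17 for the interaction. In the fits without 1 library, 32.7 to 37.6% of all genes were higher and 38.5 to 40.1% lower for Cd against control. For Cd+OP against Cd these shares were 34.8 to 36.4% and 32.8 to 34.8%. For control+OP against control they were 27.7 to 34.6% and 25.5 to 30.9%. Cd+OP against control+OP gave 31.5 to 33.7% and 31.3 to 33.4%, and the interaction 32.3 to 35% and 26.6 to 29.6%. Deviations from the group mean correlated at -0.0133 to 0.0792 (mean 0.0185) in 18 same-numbered pairs of libraries, 0 of them over 0.1. In 36 other pairs they correlated at -0.098 to 0.0521 (mean -0.00926). With 3 libraries per group such weak correlations cannot exclude a pairing by replicate number. A fit with the replicate block gave the same counts, 17 and 15, 7 and 23, 13 and 20, 15 and 13, and 18 and 17. The 31 genes under 1 FPKM were left out by that cutoff. Counts among them ran from 0 in some libraries to 347 to 809 per library for GLYMA_07G274200.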
